A study of Mus musculus with 4 samples.

Results

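Microglia in a resting, homeostatic state were chosen by their own RNA counts, with a gate, from single-cell libraries of mouse brain. A cell barcode entered with 2000 or more UMIs (unique molecular identifiers, each 1 captured RNA molecule), at most 10% mitochondrial UMIs and at least 3 of 5 markers: P2ry12, Tmem119, Crybb1, Ecscr and Siglech. It also had to hold no UMI of 13 genes: Cst7, Itgax, Gpnmb, Spp1 and Lpl of disease-associated microglia, Mrc1 and Pf4 of border macrophages, Mki67 and Top2a of dividing cells, H2-Aa of antigen presentation, Ifit3 of the interferon response, and the chemokine genes Ccl3 and Ccl4. Of 24520 barcodes in all, 7778 passed. They were 4032 wild-type, 2330 TERF2DN-Tg, 590 APP/PS1 and 826 APP/PS1; TERF2DN cells.

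The series holds 4 libraries, 1 per genotype, of brain cells enriched by magnetic sorting for CD11b, a surface protein of myeloid cells. Wild-type mice carried neither transgene, as far as the labels say. TERF2DN-Tg mice carry a dominant-negative form of TERF2, a protein that shields telomeres. The title concerns senescent endothelial cells, and the cell type that expresses the transgene was not stated in the labels. APP/PS1 mice, by the title APPswe/PS1dE9, carry mutant APP and presenilin transgenes and deposit amyloid. The fourth library, here called the combined genotype, carried both. The labels do not state age, sex or how many animals gave each library. With 1 library per genotype no test is possible. Intervals below are 95% exact intervals that cover counting error only, and a difference between libraries may come from the genotype, the animal or the preparation, which cannot be told apart.

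Microglia are the resident macrophages of the brain. In the homeostatic state they are maintained by TGF-beta and CSF1 receptor signalling and by transcription factors such as SALL1, and they sense nucleotides through P2RY12 and neuronal fractalkine through CX3CR1. Near amyloid plaques, microglia take on a disease-associated state through the receptor TREM2 and its adaptor TYROBP: homeostatic genes go down, and genes of lipid handling and lysosomes, with Apoe, Cst7, Lpl and Spp1 among them, go up. Interferon-responsive microglia, with antiviral genes and MHC class I, are a further state known from amyloid models.

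Gated cells were a smaller part of both amyloid libraries. They made up 61.7% (interval 60.5 to 62.9) of the 6538 wild-type cells that passed the UMI and mitochondrial limits and 56.0% (54.5 to 57.5) of 4160 TERF2DN-Tg cells. In APP/PS1 the share was 13.5% (12.5 to 14.5) of 4380 cells and in the combined genotype 18.7% (17.5 to 19.8) of 4427. Of cells with 3 or more markers, 66.3%, 60.7%, 20.7% and 25.9% were free of the 13 genes, in the same order. These shares follow from the genes that chose the cells and are a description. Cells with more UMIs have more chances to hold one of the 13 genes, so each passing cell was also thinned at random to 2000 UMIs before the gate was read. The shares were then 66.7%, 63.1%, 19.7% and 25.8%, in the same order of libraries.

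**Figure D1:**
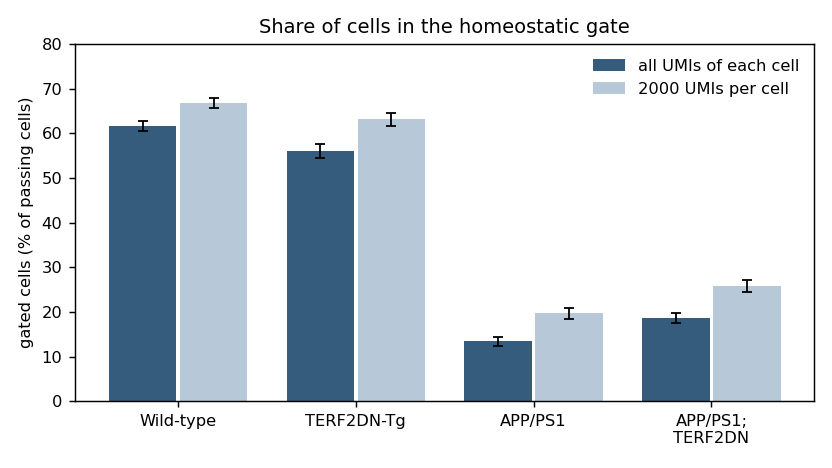
Gated cells as a percentage of cells passing the UMI and mitochondrial limits, by library, with all UMIs of each cell (dark) and with 2000 UMIs per cell (light); error bars are exact 95% intervals of counting error. Wild-type and TERF2DN-Tg lie above 50%, and both amyloid libraries lie below 30%.

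Among marker-positive cells, the gene that most often kept a cell out differed between libraries. In wild-type it was Ccl3, with a UMI in 12.5% of 6080 cells, and in APP/PS1 it was Cst7, a cystatin of the disease-associated state, in 58.0% of 2853 cells. Cst7 was found in 5.72% of wild-type, 7.4% of TERF2DN-Tg and 51.0% of combined-genotype cells. Free RNA in the droplets adds to such shares. Natural killer cells express Cst7, Ccl3 and Ccl4 and B cells H2-Aa, and other blood cells may also express some of the 13 genes themselves. Neutrophils and lymphocytes were read here as cells that are not microglia. They held at least 1 UMI of the 13 genes in 7 of 27 wild-type, 7 of 17 TERF2DN-Tg, 8 of 11 APP/PS1 and 7 of 14 combined-genotype cells, at median depths of 3835, 3560, 3624 and 6091 UMIs. The part of free RNA in the gated shares was not tested.

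Just outside the gate, 1002 wild-type, 740 TERF2DN-Tg, 388 APP/PS1 and 510 combined-genotype cells had 3 or more markers and 1 single UMI of the 13 genes. Their Apoe was 1844, 2274, 2592 and 3305 CPM (counts per 1000000 UMIs). Just inside, 321, 208, 58 and 90 gated cells had exactly 3 markers and none of the 13 genes, with Apoe at 1454, 1539, 5734 and 6676 CPM.

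Gated cells were of like depth. The median was 5322 UMIs in wild-type, 5434 in TERF2DN-Tg, 5273 in APP/PS1 and 5216 in the combined genotype, and the summed UMIs were 23018507, 13488022, 3180151 and 4510324. The amyloid libraries thus give the wider intervals. Libraries shared 7 to 13 barcodes per pair, and at most 1 gated barcode.

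The cells carried the label's defining genes. P2ry12, the purinergic receptor that names the state, was at 1913 CPM in wild-type, 1874 in TERF2DN-Tg, 1859 in APP/PS1 and 1750 in the combined genotype. Tmem119, a microglial surface protein, was at 934, 915, 875 and 933 CPM in the same order. These genes chose the cells, so their levels are a description. The 10 microglial markers summed to between 7982 and 8591 CPM.

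Markers of other cell types were mostly low. T and NK cell markers summed to 0.222 to 0.445 CPM, mural markers to 0.629 to 1.63 CPM and neuronal markers to 2.22 to 5.26 CPM. Endothelial markers summed to 297 to 363 CPM, led in each library by Bsg, which many cell types express. B cell markers summed to 157 to 211 CPM, led by Ighm, with Ms4a1 and Pax5 at 0 in all 4 libraries. Astrocyte markers summed to 165, 163, 171 and 233 CPM in wild-type, TERF2DN-Tg, APP/PS1 and the combined genotype. Slc1a3 led them, at 147, 147, 152 and 216 CPM. Border macrophage markers outside the gate summed to 139 to 172 CPM, led by Stab1. Neutrophil markers differed most, at 2136 CPM in wild-type, 1088 in TERF2DN-Tg, 198 in APP/PS1 and 1074 in the combined genotype. In APP/PS1 the sum was mostly Csf3r, at 187 CPM, a gene also on the list of homeostatic identity genes used below. Of S100a8 and S100a9 UMIs, 97.9% lay in 12 wild-type cells, 96.0% in 6 TERF2DN-Tg cells and 97.3% in 1 combined-genotype cell, and APP/PS1 had no such cell. These cells held 10 or more UMIs of both genes and had median depths of 12208, 11498 and 10625 UMIs.

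Beyond the gate genes, 6201 genes that reached 20 CPM in any of the libraries were compared. A gene is called lower where the ratio of CPM + 5 is 0.8 or less, and higher where the inverse ratio is. This added 5 CPM understates differences of low genes. Amyloid was compared in 2 pairs, APP/PS1 with wild-type and the combined genotype with TERF2DN-Tg, and these 2 pairs share no library. In the first pair 164 genes were higher (2.64%) and 120 lower (1.94%). In the second pair 242 were higher (3.9%) and 236 lower (3.81%). Over all genes the log2 ratio had a median of 0.00 and of -0.03. In both pairs 57 genes were higher (0.919% of genes compared), which is 34.8% of the first pair's list and 23.6% of the second's. In both pairs 14 were lower (0.226%), 11.7% and 5.93% of the lists.

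**Figure D2:**
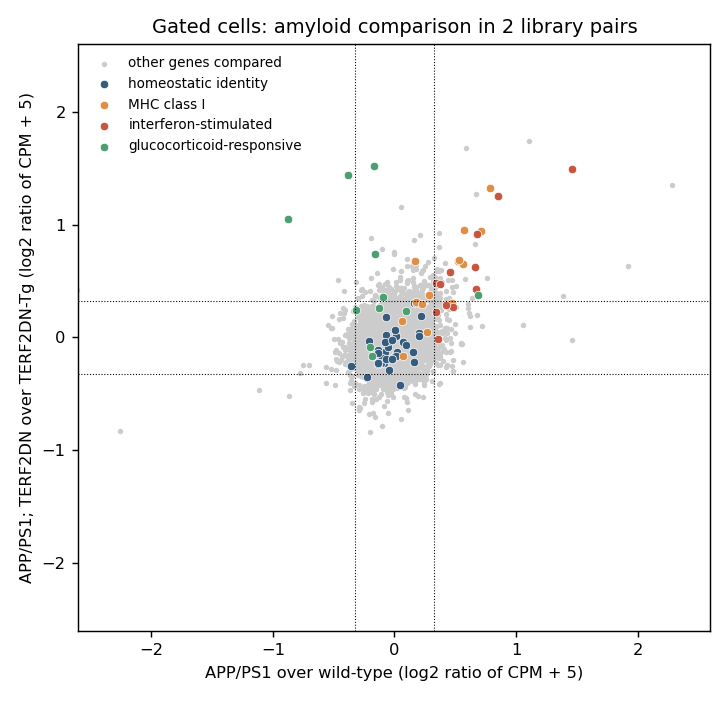
Log2 ratio of CPM + 5 in gated cells, APP/PS1 over wild-type (x axis) against the combined genotype over TERF2DN-Tg (y axis), 1 point per gene compared; dotted lines mark a ratio of 0.8 and its inverse, and 9 genes lie outside the plotted range of 2.6. Interferon-stimulated and MHC class I genes lie mostly in the upper right, homeostatic genes around 0, and several glucocorticoid-responsive genes are high on the y axis only.

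Homeostatic identity genes had median log2 ratios of -0.04 in the first amyloid pair and -0.13 in the second. Of 37 measured members, none was higher in either amyloid pair, against 2.64% and 3.9% of all genes. The lower calls were 1 in the first pair and 2 in the second, against 1.94% and 3.81% of all genes, so their share was near the background. In the combined genotype against APP/PS1, 2 of the 37 were lower, against 3.95% of all genes. Cx3cr1, the fractalkine receptor, was at 3299 CPM in wild-type, 3610 in TERF2DN-Tg, 3671 in APP/PS1 and 3307 in the combined genotype. Sall1, the transcription factor that sets microglial identity, was at 251, 259, 231 and 220 CPM. The members called lower were Pdlim4 in the first pair and Upk1b and Rapgef5 in the second. No member was called lower in both.

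Interferon-stimulated genes were higher in both amyloid libraries. All 12 measured members of 26 listed were called higher in APP/PS1 against wild-type, and 8 of the 12 in the combined genotype against TERF2DN-Tg, with 8 called in both. Median log2 ratios were 0.47 and 0.48. Only members above the 20 CPM minimum in some library were counted. Some, such as Ifi204 and Rtp4, reached it only in amyloid libraries, so the filter favoured their higher calls. Ifit3, a gene of this kind, was barred by the gate, so cells with a strong interferon response were left out in every library. The background was 2.64% and 3.9% of all genes called higher. Over 17 alternative settings the medians were 0.36 to 0.57 in the first pair and 0.41 to 0.53 in the second, but the number called higher moved from 5 to 14 and from 4 to 11. The fewest were called with a fold of 1.5, at 5 and 4 of 12, and a minimum of 50 CPM left 7 members, of which 7 and 5 were called.

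Ifi27l2a, a small interferon-induced membrane protein gene, had the largest difference of the list in both pairs. It stood at 40.0 CPM in wild-type, 45.3 in TERF2DN-Tg, 119 in APP/PS1 and 137 in the combined genotype. Both amyloid libraries were above both others, with ratios of 2.97 (2.63 to 3.36) and 3.01 (2.69 to 3.38). Blood cells of these libraries also held Ifi27l2a, at 187, 23.9, 273 and 353 CPM, and the part of free RNA was not tested for it.

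Lgals3bp, a secreted galectin-binding glycoprotein, was at 69.1 CPM in wild-type, 85.5 in TERF2DN-Tg, 113 in APP/PS1 and 117 in the combined genotype. The ratios were 1.64 (1.46 to 1.84) and 1.36 (1.23 to 1.51). In blood cells Lgals3bp was at 7.19, 0, 14.4 and 0 CPM. Those levels rest on almost no UMIs, from 27, 17, 11 and 14 cells, and the part of free RNA was not tested.

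Ifitm3, which restricts virus entry, was at 33.6 and 34.5 CPM in wild-type and TERF2DN-Tg and at 56.3 and 55.9 CPM in APP/PS1 and the combined genotype. Bst2, or tetherin, was at 172, 163, 219 and 229 CPM in the order wild-type, TERF2DN-Tg, APP/PS1 and combined genotype. The low-level genes Ifi204, a DNA sensor, and Rtp4 were at 8.60, 10.2, 19.5 and 31.0 CPM and at 11.3, 13.1, 21.1 and 29.3 CPM. Each of these 4 genes was higher in both amyloid libraries than in both others.

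MHC class I genes formed a parallel group. Of 14 measured members of 16 listed, 7 were higher in the first pair, 8 in the second and 6 in both, and none was lower. Here too only members above the 20 CPM minimum in some library were counted. The filter may have favoured higher calls of low members such as H2-Q7. That gene had the largest log2 ratio of the list in both pairs, at 0.79 and 1.33. Median log2 ratios were 0.38 and 0.51. Over the alternative settings 2 to 9 members were higher in the first pair and 7 to 11 in the second, with the 2 at a fold of 1.5. H2-D1, a classical heavy chain on chromosome 17 (35262730 to 35267499, plus strand, GRCm38, GENCODE M21), was at 498 CPM in wild-type, 494 in TERF2DN-Tg, 818 in APP/PS1 and 956 in the combined genotype. Its ratios were 1.64 (1.57 to 1.71) and 1.94 (1.86 to 2.01). H2-K1, the other classical heavy chain, was at 265, 262, 395 and 415 CPM. B2m, the light chain that all class I molecules share, was at 880, 902, 1264 and 1448 CPM, with ratios of 1.44 (1.39 to 1.49) and 1.61 (1.56 to 1.65).

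The difference was seen from the 10th to the 90th percentile of gated cells, and the part of free RNA in it was not tested. After each gated cell was thinned to 2000 UMIs, the 14 class I genes together gave a median of 4 UMIs per cell in wild-type, 4 in TERF2DN-Tg, 6 in APP/PS1 and 7 in the combined genotype. The 10th percentile was 2, 2, 3 and 3 UMIs and the 90th 9, 9, 11 and 13. The list also holds genes that make, carry or load peptides, a grouping made here after the values were seen. The peptide transporter gene Tap1 was at 24.1, 22.9, 28.0 and 29.7 CPM and its partner Tap2 at 33.7, 36.4, 48.7 and 46.1 CPM. Tapbp, or tapasin, was at 106, 113, 111 and 101 CPM, and Erap1, a peptide-trimming protease, at 30.5, 33.6, 37.7 and 34.8 CPM. Of the immunoproteasome subunits, Psmb8 was at 269, 248, 280 and 275 CPM and Psmb9 at 74.0, 70.4, 91.2 and 92.7 CPM. Among these genes Tap2 was called higher in the first pair and Psmb9 in the second. Class I heavy chains are close paralogs, and reads shared between them may be split or dropped in counting.

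**Figure D3:**
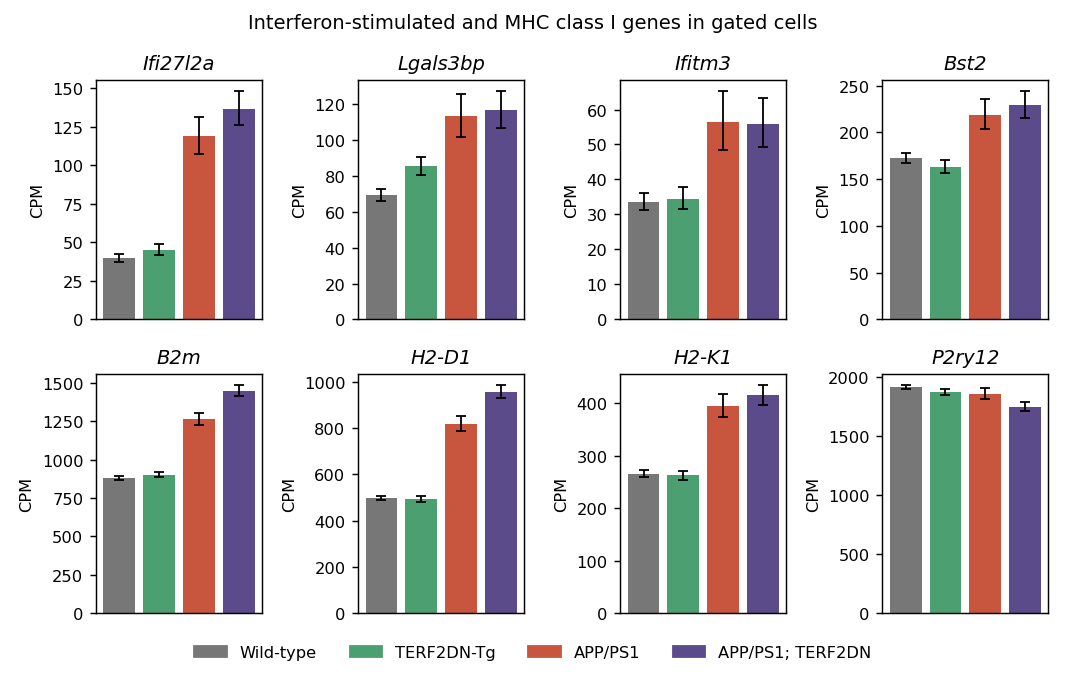
Levels in CPM of summed gated cells for 4 interferon-stimulated genes, 3 MHC class I genes and the gate marker P2ry12, 1 bar per library, with exact 95% Poisson intervals. In the first 7 panels both amyloid libraries lie above both libraries without APP/PS1; P2ry12 stays between 1750 and 1913 CPM.

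The promoters of these genes were read for the interferon-stimulated response element, searched as GAAA, any 2 bases and GAAA again, on either strand. Windows run from 250 bases before to 50 after the transcript start (RefSeq, GRCm38.p6). Of the measured interferon-stimulated genes 8 had a window and 4 of these held the letters: Bst2, Ifitm3, Stat2 and Trim30a. Of 13 class I genes with a window, 4 held them: B2m, Erap1, H2-T22 and H2-T23. The share was 3.99% over all 27025 genes with a window and 3.95% over the 5009 of them compared here. Among glucocorticoid-responsive genes, a list taken up below, 2 of 10 windows also held the letters. The windows of H2-D1 and H2-K1 did not hold them, while that of Erap1, called in neither amyloid pair, did. A match is a description and shows no binding. The promoters of B2m, Bst2 and Ifitm3, called higher in both pairs, are printed below on the gene's strand with matches in capitals. They lie at chr2:122147437-122147736 (plus strand), chr8:71537423-71537722 (minus) and chr7:141010695-141010994 (minus).
B2m: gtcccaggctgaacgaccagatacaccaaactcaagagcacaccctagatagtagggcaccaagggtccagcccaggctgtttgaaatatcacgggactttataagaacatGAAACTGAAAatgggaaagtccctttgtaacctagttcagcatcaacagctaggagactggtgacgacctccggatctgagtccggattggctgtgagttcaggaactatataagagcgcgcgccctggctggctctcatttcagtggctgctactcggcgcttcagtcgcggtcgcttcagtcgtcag
Bst2: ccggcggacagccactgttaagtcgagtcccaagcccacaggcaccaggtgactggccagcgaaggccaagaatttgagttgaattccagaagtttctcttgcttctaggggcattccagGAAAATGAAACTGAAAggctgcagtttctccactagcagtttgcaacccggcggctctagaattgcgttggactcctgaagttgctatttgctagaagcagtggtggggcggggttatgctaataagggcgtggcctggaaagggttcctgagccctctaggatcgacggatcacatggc
Ifitm3: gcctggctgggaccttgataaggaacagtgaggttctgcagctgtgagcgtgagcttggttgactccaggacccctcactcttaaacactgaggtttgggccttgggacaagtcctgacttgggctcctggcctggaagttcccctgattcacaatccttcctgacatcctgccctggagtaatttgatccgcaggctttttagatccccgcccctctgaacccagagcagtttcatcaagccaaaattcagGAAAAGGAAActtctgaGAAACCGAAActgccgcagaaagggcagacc
In the B2m window the match starts at base 112 of 300, and in Bst2 the first of 2 overlapping matches starts at base 121. In Ifitm3 the first of 2 matches starts at base 253, after the transcript start.

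Apoe, the lipid carrier of the brain and a first-stage gene of the disease-associated state, had a larger log2 ratio in both pairs than any class I gene. It was at 876 CPM in wild-type, 969 in TERF2DN-Tg, 1896 in APP/PS1 and 3260 in the combined genotype. Amyloid ratios were 2.16 (2.10 to 2.23) and 3.36 (3.28 to 3.44). The level in neutrophils and lymphocytes, a measure of free RNA, was also higher in both amyloid libraries, at 446, 215, 1695 and 1112 CPM. Unlike in gated cells, that level was lower in the combined genotype than in APP/PS1, and lower in TERF2DN-Tg than in wild-type.

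Apoe UMIs were also very uneven between gated cells. Cells with Apoe above 20000 CPM numbered 12, 9, 9 and 21, and they held 19.2%, 14.5%, 23.6% and 48.7% of all Apoe UMIs of gated cells. Without them Apoe was at 710, 832, 1470 and 1729 CPM in the order wild-type, TERF2DN-Tg, APP/PS1 and combined genotype. The median over gated cells was 183, 235, 678 and 808 CPM. Both amyloid libraries thus stayed above both others, and the parts of free RNA and of these few cells in the remaining difference were not tested.

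**Figure D4:**
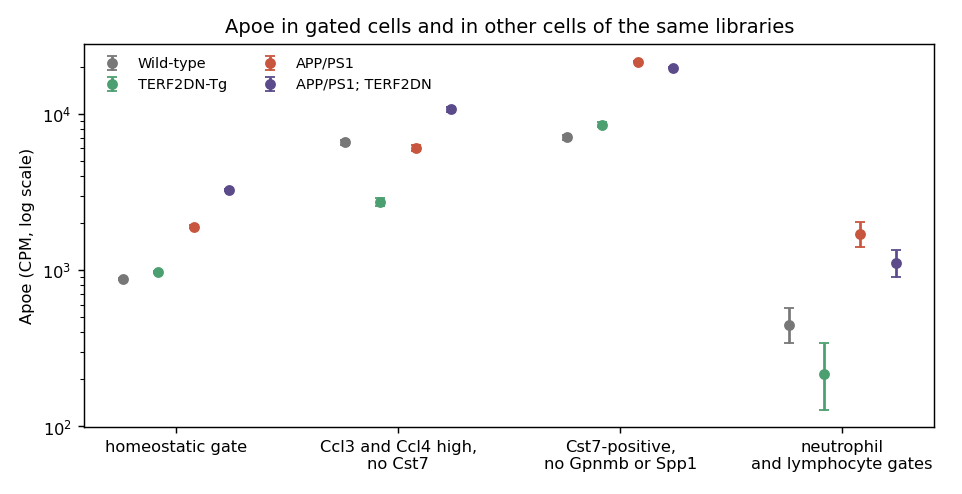
Apoe level in CPM (log axis) in gated cells, cells high in Ccl3 and Ccl4, Cst7-positive cells, and neutrophils with lymphocytes of each library; bars are exact 95% Poisson intervals. Cst7-positive cells reach 21511 CPM in APP/PS1, against 1896 CPM in gated cells and 1695 CPM in blood cells of that library.

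Other genes of the disease-associated state were called in part. Of 7 first-stage genes, 2 were higher in the first pair and 4 in the second, with Apoe and B2m in both, against 2.64% and 3.9% of all genes. Median log2 ratios of the list were 0.07 and 0.33. The second pair added Fth1, the ferritin heavy chain, and Lyz2, or lysozyme. Fth1 was at 3761, 3659, 4297 and 4613 CPM and Lyz2 at 622, 601, 654 and 758 CPM, in the order wild-type, TERF2DN-Tg, APP/PS1 and combined genotype. Both lie close to the limit of a call, and the count in the second pair was 2 without gated cells lacking Malat1 and also with a fold of 1.5; in the first pair that fold gave 1. In neutrophils and lymphocytes Lyz2 was at 7014, 4839, 5745 and 10299 CPM, and the part of free RNA in its difference was not tested. Tyrobp, the TREM2 adaptor, was at 2608, 2418, 2481 and 2391 CPM, and Ctsd, a lysosomal protease, at 4134, 4145, 4018 and 4197 CPM. Neither was called in either pair. Trem2 itself was at 2361, 2237, 2322 and 2118 CPM. Of 15 measured second-stage genes outside the gate, 3 and 2 were higher and none was lower, with median log2 ratios of 0.04 and 0.05. Fabp5, a fatty acid binding protein, was at 2.09, 3.56, 29.6 and 16.9 CPM, with blood-cell levels of 28.8, 59.7, 28.7 and 96.3 CPM. It reached the 20 CPM minimum only in gated cells of APP/PS1, so the filter favoured its higher call there. Of 42 lysosomal genes 1 was higher in the first pair, and 2 were higher and 1 lower in the second.

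Cells of the same libraries that passed the same limits but held 2 or more Cst7 UMIs and no Gpnmb or Spp1 were set beside the gated cells. In APP/PS1, 649 such cells had Trem2 at 5619 CPM against 2322 in 590 gated cells, a ratio of 2.42 (2.36 to 2.48). Cx3cr1 was at 1899 against 3671 CPM. The class I light chain B2m, at 2005 against 1264 CPM, was also higher in Cst7-positive cells. No test was possible. Cst7 chose both classes, and cells of both had to carry the homeostatic markers of the gate. Gated cells had to lack every barred gene, while Cst7-positive cells had to lack only Gpnmb, Spp1, Mrc1, Pf4, Mki67 and Top2a. These levels are therefore a description.

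Single members of several lists were higher in both amyloid pairs, where the share over all genes was 0.919%. They were 2 of 21 microglial transcription factors, 1 of 10 complement genes, 1 of 12 cytokines and chemokines and 1 of 9 CDK inhibitors and p53 targets, but 0 of 11 toll-like receptors. Cebpb, a transcription factor of myeloid inflammation, was at 67.2 CPM in wild-type, 58.9 in TERF2DN-Tg, 110 in APP/PS1 and 149 in the combined genotype. Its ratios were 1.63 (1.45 to 1.84) and 2.53 (2.28 to 2.80). The C5a receptor gene C5ar1 was at 35.7, 38.2, 47.5 and 76.9 CPM and the chemokine gene Ccl12 at 47.7, 55.1, 61.0 and 93.1 CPM. Bhlhe41, a transcription factor of microglial and macrophage self-renewal, was at 134, 138, 181 and 185 CPM. Gpr65, a proton-sensing receptor, was at 15.0, 15.6, 25.2 and 61.2 CPM, highest in the combined genotype. Cdkn1a, the gene of the cell-cycle inhibitor p21, had ratios of 1.85 (1.41 to 2.41) and 1.43 (1.07 to 1.90). Gpr65 and Cdkn1a reached the 20 CPM minimum only in amyloid libraries, so the filter favoured their higher calls.

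TERF2DN was likewise compared in 2 pairs that share no library. Against wild-type, TERF2DN-Tg had 29 genes higher (0.468%) and 24 lower (0.387%). The combined genotype against APP/PS1 had 237 higher (3.82%) and 245 lower (3.95%), in libraries with fewer gated cells. In both pairs 5 genes were higher (0.0806%) and 2 lower (0.0323%). In opposite directions, 5 genes were higher in the first pair and lower in the second, and 10 were lower and then higher, which is 41.7% of the 24 lower in the first. Those 10 include S100a8, S100a9, Camp, Ngp, Lcn2 and Retnlg, whose UMIs lay mostly in the few gated cells with neutrophil RNA. Picked after their values were seen, the 5 higher in both pairs were Zc3h6, Pik3ip1, Gm43305, Hmga1 and Psat1. The 2 lower in both were Tubb2b and Ssbp2. Terf2 is named in the transgene, but a dominant-negative form need not be counted as the mouse gene, and no member of the telomere list was called in either pair.

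Without amyloid, none of the 37 homeostatic genes and none of the 14 class I genes was called in TERF2DN-Tg against wild-type, where 0.468% of all genes were higher and 0.387% lower. The 12 interferon-stimulated genes had a median log2 ratio of 0.12, against 0.01 over all 6201 genes. Lrp1, a lipoprotein and amyloid uptake receptor, was at 396 CPM in wild-type and 498 in TERF2DN-Tg, but at 429 in APP/PS1 and 399 in the combined genotype.

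With amyloid, glucocorticoid-responsive genes set the combined genotype apart. Of 11 measured members of 18 listed, 5 were higher and 1 lower in the combined genotype against APP/PS1, and 6 were higher against TERF2DN-Tg; these comparisons share the combined library. All-gene shares were 3.82% and 3.95% higher and lower against APP/PS1 and 3.9% higher against TERF2DN-Tg. Over the alternative settings 4 to 8 were higher in each comparison, with the 8 at a minimum of 10 CPM and 15 members measured. Ddit4 reached the 20 CPM minimum only in the combined genotype, where it was high, so the filter favoured its higher calls. Median log2 ratios were 0.26 and 0.36. In TERF2DN-Tg against wild-type none was called, with a median of -0.08. In APP/PS1 against wild-type 1 was higher and 2 were lower, with a median of -0.17. The 1 higher was Cdkn1a, which reached the 20 CPM minimum only in APP/PS1, so the filter favoured that call.

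Fkbp5, a co-chaperone of the glucocorticoid receptor and its classical target, was at 52.1 CPM in wild-type, 52.9 in TERF2DN-Tg, 45.9 in APP/PS1 and 160 in the combined genotype. The first 3 libraries lay together and the combined genotype stood apart, at 3.49 times APP/PS1 (2.92 to 4.20). In blood cells Fkbp5 was at 43.2, 23.9, 43.1 and 42.8 CPM, each from a few UMIs. Among Cst7-positive cells it was 34.8 CPM in APP/PS1 and 83.9 in the combined genotype, so those cells differed in the same direction.

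Tsc22d3, which encodes the glucocorticoid-induced leucine zipper GILZ, was at 27.2, 25.5, 12.6 and 58.1 CPM. The combined genotype was highest and APP/PS1 lowest, with a ratio of 4.62 (3.30 to 6.61) between them. Sult1a1, a sulfotransferase, was at 85.6, 87.0, 76.1 and 148 CPM. Ddit4, a stress-induced inhibitor of mTOR signalling, was at 6.43, 5.41, 3.77 and 23.3 CPM. In contrast Txnip, also on the list, was at 242, 230, 212 and 205 CPM and was called in no comparison. The glucocorticoid response element, searched on both strands as GNACA, any 3 bases and TGTNC, was in 3 of 10 promoter windows of the list, those of Mt1, Sgk1 and Txnip, against 0.537% of all genes. None of these 3 genes was called in the combined genotype against APP/PS1.

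**Figure D5:**
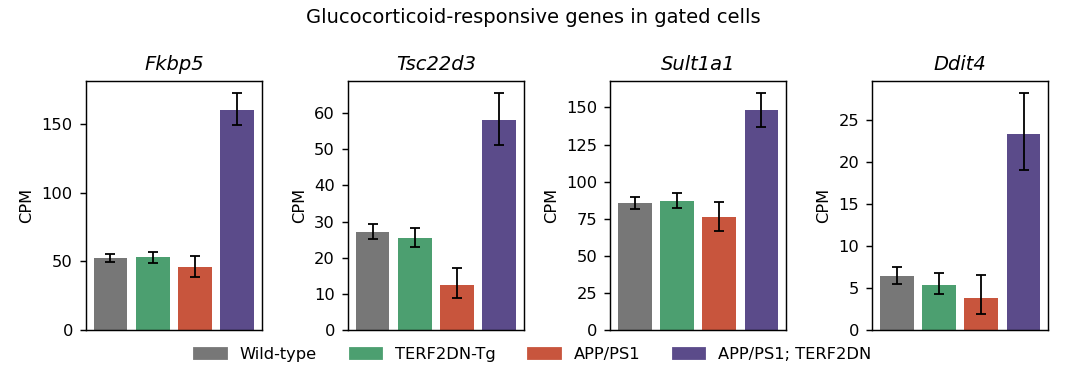
Levels in CPM of 4 glucocorticoid-responsive genes in summed gated cells, 1 bar per library, with exact 95% Poisson intervals. The combined genotype is highest in each panel, at 160 CPM for Fkbp5 against 45.9 to 52.9 CPM elsewhere.

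A few other genes followed the combined genotype. Ccnd3, a D-type cyclin, was at 43.4, 48.8, 37.4 and 93.8 CPM in the order wild-type, TERF2DN-Tg, APP/PS1 and combined genotype. Ms4a6c, of the membrane-spanning 4A family, was at 32.2, 33.8, 32.1 and 59.6 CPM, and the endotoxin co-receptor gene Cd14 at 161, 154, 180 and 235 CPM. Vav2, a guanine nucleotide exchange factor, was lower at 53.2, 53.6, 49.4 and 29.0 CPM.

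Gated cells varied most in a few genes. After thinning, variance over mean of UMIs per cell was highest for S100a8 and S100a9 in the 3 libraries with neutrophil RNA, at 231 for S100a8 in wild-type. In APP/PS1 Apoe led at 25.6. Malat1, a nuclear RNA, had a variance over mean of 12.2, 14.6, 16.1 and 20.6 and was undetected in 9 wild-type, 9 TERF2DN-Tg, 16 APP/PS1 and 34 combined-genotype cells, or 0.223%, 0.386%, 2.71% and 4.12%.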

How the data were processed

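Per the file headers, the deposited matrices hold UMI counts per gene and barcode from Cell Ranger 6.1.2. The submitters' processing notes name the build as mm10, and each library lists 32285 genes. The lowest barcode had 500 or 501 UMIs.

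Counts of gated cells were summed per library and scaled to CPM. Sums have exact Poisson, ratios exact conditional binomial and shares Clopper-Pearson intervals of 95%, computed with scipy 1.17.1. No p-value was computed. Printed ratios are plain CPM ratios, and log2 ratios and calls use CPM + 5. Members and all 28 gene lists were chosen with earlier results of these data known. Named genes are the 10 highest and 10 lowest per comparison at 50 CPM or more, up to 4 per list, the 10 most variable per library, the gate genes and a fixed set. Bst2, Txnip and the peptide-handling genes Tap1, Tap2, Tapbp, Erap1, Psmb8 and Psmb9 were added after their values were seen. So were Bsg, Ighm and Slc1a3 as leading markers, and H2-T22, Mt1 and Trim30a for a motif match. Doublets were scored with Scrublet (scanpy 1.11.5) at 0.8% per 1000 cells and kept, except in 1 alternative. Free RNA was read in cells with no microglial marker that were neutrophils (10 or more UMIs each of S100a8 and S100a9) or lymphocytes. There were 27 wild-type, 17 TERF2DN-Tg, 11 APP/PS1 and 14 combined-genotype cells of this kind. Blood-cell levels of low genes therefore rest on few UMIs. A total of 4 list symbols did not match and were not analysed here, and some genes are not reported here. Intervals were tested on simulated data.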

Additional observations from a re-analysis of the deposited data

Results flagged for a closer look

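Some genes differed in opposite directions between the 2 library pairs of the same contrast, beyond counting error in each pair. In every case the difference between pairs was not tested, and with 1 library per genotype it could not be.

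Neutrophil granule genes were flagged most often. For amyloid, with APP/PS1 against wild-type first and the combined genotype against TERF2DN-Tg second, the log2 ratio of Camp was -4.79 and 0.56 and that of Ngp was -4.60 and 0.60. For TERF2DN, with TERF2DN-Tg against wild-type first and the combined genotype against APP/PS1 second, Camp had -2.12 and 3.23, Ngp had -1.21 and 3.98 and Lcn2 had -1.36 and 2.73. S100a8 had -1.09 and 5.21, S100a9 had -0.91 and 5.23, and Retnlg had -1.23 and 2.56. Without the 12 wild-type, 6 TERF2DN-Tg and 1 combined-genotype cells that held 10 or more UMIs of both S100a8 and S100a9, S100a8 was at 16.2, 15.8, 5.03 and 9.11 CPM in wild-type, TERF2DN-Tg, APP/PS1 and the combined genotype, and Camp was at 0.963, 2.01, 0.314 and 0.889 CPM.

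Tsc22d3 had an amyloid log2 ratio of -0.88 in the first pair and 1.05 in the second. For TERF2DN, Gstp1, a glutathione transferase, had 0.37 and -0.58. In blood cells Gstp1 was at 14.4, 11.9, 57.4 and 32.1 CPM. Those levels rest on a few UMIs per library, so they give no order of the libraries. Scd2, a fatty acid desaturase, had 0.39 and -0.39.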

How the results depend on the processing

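No paired analysis was possible because each genotype has 1 library and no result comes from a test. Among 17 alternatives, 3 of them (leaving out cells with neutrophil RNA, leaving out cells lacking Malat1, and requiring that the ratio's interval leave out 1) were chosen after seeing the data. Counts of genes depended on thresholds, and 143 of the count and share values moved by no more than 1.5 times or stayed within counting error, while 85 moved further. The causes were not tested. Counts below are given higher and then lower.

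With a fold of 1.5, APP/PS1 against wild-type gave 26 and 16 genes, the combined genotype against TERF2DN-Tg 53 and 13, TERF2DN-Tg against wild-type 2 and 11, and the combined genotype against APP/PS1 40 and 14. In both amyloid pairs 12 and 1 were called, and in both TERF2DN pairs 0 and 0. With a minimum of 50 CPM the same comparisons gave 59 and 25, 118 and 80, 14 and 11, and 74 and 69, with 29 and 5 in both amyloid pairs and 0 and 1 in both TERF2DN pairs. A minimum of 10 CPM gave 277 and 244 in the first comparison, 440 lower in the second, 65 and 40 in the third, 431 and 447 in the fourth, 39 lower in both amyloid pairs and 14 higher in both TERF2DN pairs. Adding 20 CPM gave 62 and 30, 125 and 59, 7 and 13, and 87 and 52, with 32 and 3 in both amyloid pairs and 1 and 0 in both TERF2DN pairs. Adding 1 CPM gave 187 lower in the first comparison, 59 higher in the third and 25 lower in both amyloid pairs.

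Thinning gated cells to 2000 UMIs leaves fewer counts per gene, and gave 445 and 430, 401 and 669, 132 and 68, and 593 and 677, with 87 and 69 in both amyloid pairs and 25 and 14 in both TERF2DN pairs. There the log2 ratio of Rtp4 in the combined genotype against APP/PS1 turned to -0.022. Reading the gate on thinned cells gave 153 and 117 in the fourth comparison, 23 lower in both amyloid pairs and 1 lower in both TERF2DN pairs. Allowing 1 UMI of the 13 barred genes gave 62 lower in the first comparison, 127 and 131 in the fourth and 10 lower in both TERF2DN pairs. The mean of CPM per cell gave 48 higher in the third comparison and 1 lower in both TERF2DN pairs.

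The gated share stayed higher in wild-type and TERF2DN-Tg than in either amyloid library under each gate setting run. In the order wild-type, TERF2DN-Tg, APP/PS1 and combined genotype it was 77.0%, 73.8%, 22.3% and 30.2% with 1 barred UMI allowed, 56.8%, 51.0%, 12.1% and 16.6% with 4 or more markers, and 66.7%, 63.1%, 19.7% and 25.8% on thinned cells. With a 4000 UMI minimum it was 60.1%, 54.0%, 12.7% and 16.9%.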

Other observations

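Doublet scoring marked 300 wild-type and 130 TERF2DN-Tg gated cells, against 2 in APP/PS1 and 12 in the combined genotype, or 7.44%, 5.58%, 0.339% and 1.45%. Of 52 measured oxidative phosphorylation genes, 2 and 3 were higher in the first and second amyloid pair, near the shares of 2.64% and 3.9% over all genes, with median log2 ratios of -0.01 and 0.04. App, the gene of the amyloid precursor, was at 119 CPM in wild-type, 135 in TERF2DN-Tg, 153 in APP/PS1 and 152 in the combined genotype. Whether transgene reads were counted as App was not tested.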
